A study of Rattus norvegicus with 10 samples.

Results

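IL-6 and STAT3 signalling in rat liver was followed through 10 genes taken from the cytokine's receptor to the transcription factors behind it, together with the IL-1 receptor and its natural antagonist. A gene was included when the accession of an array probe, looked up in a RefSeq gene table, gave its current symbol. That rule found 12 probes for 9 of the 10 genes, among 41012 probes and 13438 genes with a symbol on the array. Il6r, Il6st, Jak2, Cebpb, Cebpd and Socs3 had 1 probe each, and Jak1, Stat3 and Il1rn had 2 each. Il1r1, the signalling receptor for IL-1, was not analysed here. Where a gene had 2 probes, the one with the higher mean signal stood for it, and the other is given beside it.

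IL-6 binds its own receptor, Il6r, and the pair recruits Il6st (gp130), the subunit that all cytokines of the family share to send a signal into the cell. The Janus kinases bound to gp130 then phosphorylate STAT3, which enters the nucleus and turns on its targets, Socs3 among them, whose protein blocks the same kinases and ends the signal. In hepatocytes this route, with the factors C/EBP beta and C/EBP delta and with IL-1, drives the acute phase response, in which the liver makes more fibrinogen, haptoglobin, alpha-1-acid glycoprotein and other plasma proteins. Phosphorylation of STAT3 is not visible on an expression array.

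Livers were taken from male Wistar rats at 24 h. Control rats (n = 3) were not irradiated, TBI rats (n = 3) received total-body irradiation from a 60Co source, and MASM + TBI rats (n = 4) received the matrine derivative MASM by gavage at 30 mg/kg a day for 3 days before the same irradiation. The labels give 6.5 Gy, while the study's text gives another dose for the same experiment. MASM without irradiation was not analysed here, so every comparison that involves MASM is within irradiated rats or against untreated ones. The labels number the arrays as replicates, called rats below. The study's captions describe its clustered arrays as individual rats and give 3 or 4 rats to a group on the arrays. The column names under the study's heat map show the arrays that the labels call control as TBI, and the reverse. The tables and text of the study describe changes after TBI in the direction of the labels, and the groups here follow the labels.

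Each value is the log2 of the background-subtracted Cy3 signal of a probe after quantile normalization, and a difference between groups is a log2 fold change from limma, fitted to all 10 arrays. A gene is said to have risen or fallen only at an adjusted p under 0.05 over all 41012 probes. Signals of different genes come from different probes and are not compared with each other. All 12 probes were well above background on 10 of 10 arrays. Of all spots, 57.2% to 59.9% were well above background on control arrays, 64.1% to 70.1% on TBI arrays and 56.2% to 60.2% on MASM + TBI arrays. The TBI rats had a slide to themselves, so TBI and its slide cannot be told apart, while MASM + TBI rat 3 lay on the slide of the control rats (slide 1) and the other MASM + TBI rats on another. The 6 hepatocyte markers, Alb and Ttr among them, were well above background on every array. None passed the test in any comparison, with differences from -0.52 (Ttr) to 1.53 (Tat) in TBI minus control and from -0.29 (Ttr) to 1.13 (Tat) in MASM + TBI minus control. The 4 sinusoidal endothelium markers summed to 12800 to 15700 in control, 16900 to 20800 in TBI and 14700 to 18600 in MASM + TBI rats, and none passed. In whole liver, fewer cells of a type and less RNA per cell cannot be told apart, and this bears on the T lymphocyte markers first. Their summed signal was 542 to 730 in control rats, 216 to 418 in TBI rats and 209 to 415 in MASM + TBI rats, and 3 of 6 passed the test as lower in TBI and 2 of 6 in MASM + TBI rats, though only 1 of the 6 was well above background on every array and 2 were so on none. The 6 Kupffer cell and macrophage markers summed to 47300 to 67200 in control, 46900 to 87100 in TBI and 37300 to 46400 in MASM + TBI rats. In limma 0 of 6 passed in any comparison. At an unadjusted p under 0.05 there were 1, 0 and 4 of 6 in TBI minus control, MASM + TBI minus control and MASM + TBI minus TBI, beside 23.5%, 16.9% and 17% of all probes.

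RefSeq promoter windows of 250 bases on GRCr8 were found for 7 of the 9 measured genes. They are shown for the receptor that fell after TBI (Il6r), for the C/EBP factor with the largest estimate in the same comparison (Cebpb) and for Stat3 itself. Each is written 5′ to 3′ on the gene's strand and ends at the base before the RefSeq start. Capitals mark a cAMP response half-site (TGACG, or CGTCA on the other strand) or a TATA box (TATAAA). The windows are chr2:177645210-177645459 on the minus strand for Il6r, chr3:176816755-176817004 on the plus strand for Cebpb and chr10:86363360-86363609 on the minus strand for Stat3. The Il6r window starts from a transcript whose start lies 1496 bases inside the gene's outermost start, against 154 bases for Stat3 and 0 for Cebpb.
Il6r: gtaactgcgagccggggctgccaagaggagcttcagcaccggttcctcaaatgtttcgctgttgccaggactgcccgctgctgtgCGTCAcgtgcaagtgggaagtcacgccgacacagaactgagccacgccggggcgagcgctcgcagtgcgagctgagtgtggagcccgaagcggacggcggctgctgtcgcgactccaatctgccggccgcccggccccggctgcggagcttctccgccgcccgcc
Cebpb: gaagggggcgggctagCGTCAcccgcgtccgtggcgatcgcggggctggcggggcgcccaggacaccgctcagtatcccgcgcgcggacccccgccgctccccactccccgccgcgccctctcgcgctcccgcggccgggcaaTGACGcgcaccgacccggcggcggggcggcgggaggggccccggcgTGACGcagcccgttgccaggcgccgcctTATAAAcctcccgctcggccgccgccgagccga
Stat3: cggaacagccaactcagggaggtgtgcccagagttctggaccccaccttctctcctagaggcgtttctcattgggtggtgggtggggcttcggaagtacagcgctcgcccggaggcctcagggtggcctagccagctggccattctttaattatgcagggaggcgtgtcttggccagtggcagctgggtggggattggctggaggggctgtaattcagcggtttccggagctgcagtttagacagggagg
The Cebpb window held 3 half-sites and a TATA box 33 to 28 bases before the start, the Il6r window held 1 half-site 165 to 161 bases before it, and the Stat3 window held neither motif. Of the 7 windows, 2 held the half-site, both shown here, and 2 held a TATA box, the other being that of Il1rn. Both motifs were chosen after the windows had been read. The half-site occurs in 18.2% and the TATA box in 12.9% of all 33469 windows. Both strands were also searched for a STAT site (TTCNNNGAA, in 7.67% of windows), a C/EBP site (TTNNGCAA, in 9.22%) and an interferon response element (GAAA, any 2 bases, GAAA, in 3.41%). None of the 7 windows held a STAT or C/EBP site in these letters, and 1 of them, that of Il6st, held the interferon element. The windows of Il6st, Il1rn and Socs3 start from transcripts 11360, 10486 and 1207 bases inside the outermost start of the gene. For these genes and Il6r, the bases before the outermost start were therefore not searched, and a site there could not be seen. These are matches of letters within 250 bases and not sites known to be bound.

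The receptor is where a change passed the test. Il6r, the subunit that binds IL-6, read 11.05, 11.28 and 11.13 in the control rats, 10.15, 10.51 and 10.46 in the TBI rats, and 10.75, 10.95, 10.83 and 10.90 in the MASM + TBI rats. The 3 groups did not overlap, with control highest, TBI lowest and MASM + TBI between. Il6r fell by 0.78 on the log2 scale after TBI (SE 0.11, limma adjusted p = 0.00914), so that control livers held 1.71 times the TBI signal. It passed with any 1 rat left out, but not in a fit to these 2 groups alone (adjusted p = 0.0566) or in the methods' t-test (adjusted p = 0.247). In MASM + TBI rats the difference from control was -0.29 (SE 0.11, limma adjusted p = 0.204), and from TBI it was 0.48 (SE 0.11, limma adjusted p = 0.0746), neither past the threshold. The second of these passed when arrays were scaled to their 75th percentile (0.54, adjusted p = 0.0385) and with the slide as a random block (0.48, adjusted p = 0.0214). The slide correlation in that block was negative (-0.133), and the TBI rats had their own slide. The block therefore does not take slide effects out, and a call gained with it, here or below, is not one adjusted for slide. Il6st, the shared signalling subunit, read 10.39, 10.56 and 10.37 in control, 10.19, 10.47 and 10.00 in TBI, and 10.15, 10.08, 10.07 and 10.19 in MASM + TBI rats. TBI rats overlapped control rats, and all MASM + TBI rats lay below all controls (-0.31, SE 0.11, limma adjusted p = 0.207).

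**Figure D1:**
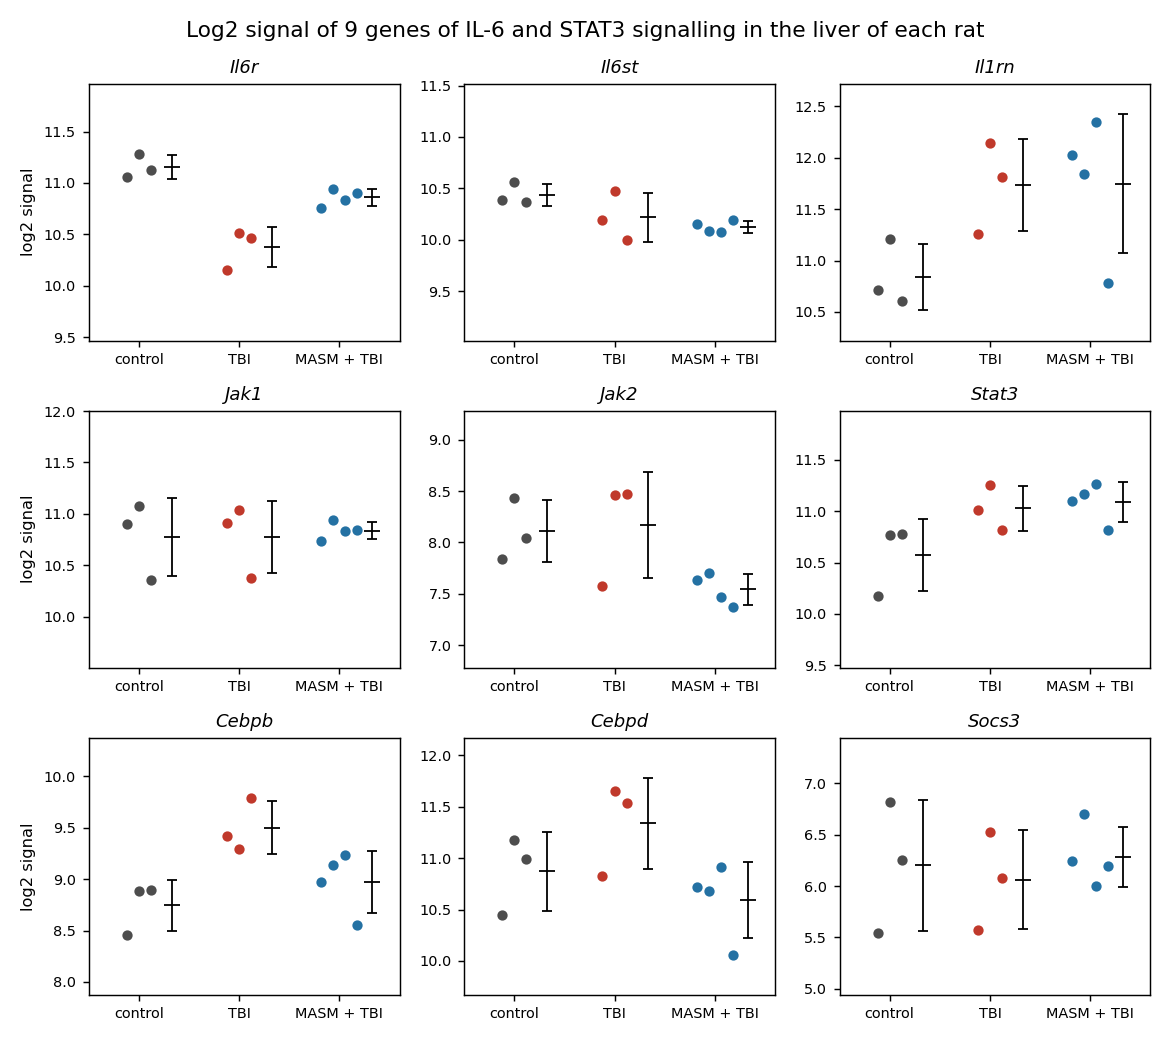
Log2 signal of 9 genes in each rat, with 1 point per array (grey control, n = 3; red TBI, n = 3; blue MASM + TBI, n = 4) and the group mean ± SD in black; each panel spans the same width on the log2 axis, and levels are not comparable between panels. The 3 groups of Il6r are separate, the TBI rats of Cebpb lie above all other rats, and MASM + TBI rat 4 (the point farthest right) is the lowest of its group for Il1rn, Jak2, Stat3, Cebpb and Cebpd.

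The kinases showed no call. Jak1, the kinase that gp130 signalling depends on most, read 10.90, 11.07 and 10.35 in control, 10.91, 11.03 and 10.38 in TBI, and 10.73, 10.94, 10.83 and 10.84 in MASM + TBI rats. The groups overlapped, and the 3 differences lay between 0.00 and 0.06 in size. The 95% interval for TBI minus control ran from -0.50 to 0.49, so differences within those bounds could not be told from none. The second Jak1 probe gave 0.19, 0.10 and -0.10 in the 3 comparisons. Jak2, a kinase shared with growth hormone and erythropoietin signalling, read 7.84, 8.43 and 8.05 in control, 7.57, 8.46 and 8.47 in TBI, and 7.63, 7.70, 7.47 and 7.37 in MASM + TBI rats. All 4 MASM + TBI rats lay below all controls (-0.57, SE 0.24, limma adjusted p = 0.276), and TBI rat 1 lay among them while the other TBI rats did not. The difference of MASM + TBI from TBI was -0.63 (SE 0.24, limma adjusted p = 0.232), and without TBI rat 1 it was -0.93 and passed (limma adjusted p = 0.0378).

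Stat3, the transcription factor that carries the signal, read 10.17, 10.76 and 10.78 in control, 11.01, 11.25 and 10.82 in TBI, and 11.10, 11.17, 11.27 and 10.81 in MASM + TBI rats. Each irradiated rat was above each control rat, with control rat 1 the lowest of all. The differences from control were 0.45 for TBI (SE 0.20, limma adjusted p = 0.212) and 0.52 for MASM + TBI (SE 0.19, limma adjusted p = 0.198), and MASM + TBI minus TBI was 0.06. Without control rat 1 the differences from control were 0.25 and 0.32. The second Stat3 probe did not repeat this in TBI rats, which read 10.82, 10.89 and 10.31 against 10.12, 10.78 and 10.82 in control, a difference of 0.10. In MASM + TBI rats it read 11.05, 11.31, 11.14 and 10.75, a difference of 0.49 from control. No Stat3 probe passed the test in any comparison.

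Cebpb, which encodes C/EBP beta, an activator of acute phase genes, read 8.46, 8.89 and 8.89 in control, 9.42, 9.29 and 9.79 in TBI, and 8.97, 9.13, 9.24 and 8.56 in MASM + TBI rats. Each TBI rat was above each rat of the 2 other groups, and MASM + TBI rats overlapped control rats. The differences were 0.76 for TBI minus control (SE 0.21, limma adjusted p = 0.0796), 0.23 for MASM + TBI minus control (0.09 without control rat 1 to 0.37 without MASM + TBI rat 4, and 0.49 with the slide as a fixed block) and -0.53 for MASM + TBI minus TBI (SE 0.20, limma adjusted p = 0.230). None passed, and the first did so with 75th percentile scaling (0.78, adjusted p = 0.0445) and with the slide as a random block (0.72, adjusted p = 0.0269). Cebpd, which encodes the related C/EBP delta, read 10.44, 11.18 and 10.99 in control, 10.83, 11.65 and 11.54 in TBI, and 10.71, 10.68, 10.91 and 10.05 in MASM + TBI rats. All groups overlapped, and the differences were 0.47, -0.28 and -0.75 in the same order, the last with an SE of 0.28 and a limma adjusted p of 0.229. With 1 rat left out, TBI minus control ran from 0.25 (without control rat 1) to 0.72 (without TBI rat 1) and MASM + TBI minus control from -0.49 (without control rat 1) to -0.10 (without MASM + TBI rat 4), and the latter was 0.04 with the slide as a fixed block.

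Socs3, the inhibitor that STAT3 induces, varied most of the 9 genes among control rats (SD 0.64). It read 5.54, 6.81 and 6.26 in control, 5.57, 6.53 and 6.08 in TBI, and 6.25, 6.70, 6.00 and 6.19 in MASM + TBI rats. The groups overlapped throughout, and the differences of -0.14, 0.08 and 0.22 all had intervals that reached beyond 0.6 on at least one side, and each changed sign when some single rat was left out. Il1rn, the antagonist that occupies the IL-1 receptor without signalling and is itself an acute phase product, read 10.71, 11.21 and 10.60 in control, 11.25, 12.14 and 11.82 in TBI, and 12.03, 11.84, 12.35 and 10.78 in MASM + TBI rats. Each TBI rat was above each control rat, and so were the MASM + TBI rats except rat 4. The differences from control were 0.90 for TBI (SE 0.40, limma adjusted p = 0.222) and 0.91 for MASM + TBI (SE 0.38, limma adjusted p = 0.264). The second Il1rn probe gave 0.76 and 1.03, also without a call.

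**Figure D2:**
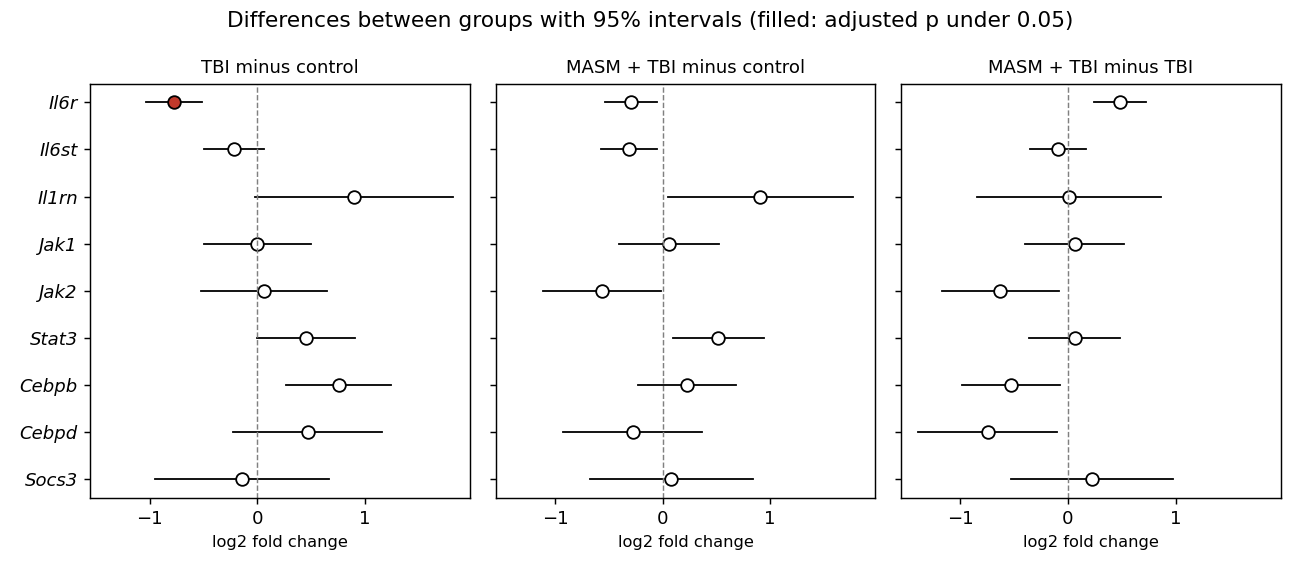
Log2 fold change of 9 genes (points) with its unadjusted 95% interval (lines) in each of the 3 comparisons; a filled point has an adjusted p under 0.05, an open one does not. Il6r in TBI minus control is the single filled point, at -0.78, and since the lines are not adjusted for the number of probes, an open point whose interval misses 0 is not a call.

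Over these genes, 1 of 9 passed the test in TBI minus control, where 5.63% of all probes did. None of 9 passed in MASM + TBI minus control, where 2.99% of all probes did, and none in MASM + TBI minus TBI, where 1.62% did. Among genes with a symbol that were well above background on every array, as these 9 were, the shares were 7.34%, 4.77% and 0.758%. At an unadjusted p under 0.05 alone, limma gave 3, 5 and 4 of 9 in the 3 comparisons, beside 23.5%, 16.9% and 17% of all probes, and after adjustment the methods' t-test gave none in any of them. With the study's thresholds (a fold change of 1.5 or more and an unadjusted p below 0.05), limma gave 2 of 9 in TBI minus control (Il6r and Cebpb, against 12.6% of all probes), 1 of 9 in MASM + TBI minus control (Il1rn, against 8.06%) and 2 of 9 in MASM + TBI minus TBI (Jak2 and Cebpd, against 7.97%). The 2 groups did not overlap for 4 of 9 genes in TBI minus control (30.2% of all probes), for 4 of 9 in MASM + TBI minus control (18.2%) and for 2 of 9 in MASM + TBI minus TBI (18.5%). The medians over the 9 genes were 0.06, 0.06 and 0.01, beside -0.03, 0.00 and 0.04 over all probes. The comparisons share groups, so their counts are not independent of each other. On slide 1 alone, MASM + TBI rat 3 differed from the mean of the 3 control rats by -0.32 for Il6r, -0.36 for Il6st, -0.64 for Jak2, 0.69 for Stat3, 0.49 for Cebpb and 1.51 for Il1rn, each outside the range of the controls, and by 0.06 for Jak1, 0.04 for Cebpd and -0.20 for Socs3, within it. That rat lay outside the range of the controls for 63% of 40972 probes, and with 1 rat there is no test.

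The rest of the pathway was covered by 8 lists with 91 genes, of which 82 had a probe. In TBI minus control 4 rose and 1 fell, where 2.44% of all probes rose and 3.19% fell. In MASM + TBI minus control 1 rose and 1 fell (1.26% and 1.73% of all probes), and in MASM + TBI minus TBI none rose and 1 fell (0.909% and 0.712%). The median difference over the 82 genes was 0.11, -0.01 and -0.12 in the 3 comparisons. In a fit to TBI and control rats alone, 1 of the 5 calls in TBI minus control was left, Stat2, and in the methods' t-test 0 passed in any comparison after adjustment.

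Of 7 IL-6 family ligands measured, 1 rose in TBI rats. Ctf1, which encodes cardiotrophin 1, a cytokine that signals through gp130, read 7.39, 7.27 and 7.42 in control, 8.14, 7.98 and 7.78 in TBI, and 7.33, 7.37, 7.38 and 7.39 in MASM + TBI rats. Its TBI values stood apart from those of both other groups, which overlapped within a narrow range. Ctf1 rose by 0.61 in TBI minus control (SE 0.10, limma adjusted p = 0.0127) and fell by 0.60 in MASM + TBI minus TBI (SE 0.09, limma adjusted p = 0.0198), while MASM + TBI minus control was 0.01. The second of these passed with 6 of 10 rats left out singly, and not without TBI rat 2 or MASM + TBI rats 1, 2 or 4 (adjusted p up to 0.0703). In fits to the 2 groups alone neither passed (adjusted p = 0.0739 and 0.0674), nor did they with the replicate block (0.0625 and 0.142). Il6 itself, named here after its values were seen, was well above background on no array, so its level has only an upper bound. None of the 4 other receptors of the family passed in limma, with 1, 0 and 0 at an unadjusted p under 0.05, beside 23.5%, 16.9% and 17% of all probes. The one with the lowest p, the IL-11 receptor Il11ra1, gave 0.31 in TBI minus control (limma adjusted p = 0.190), and 0.20 to 0.41 with 1 rat left out.

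Among 6 other Janus kinases and STATs, 1 fell in both irradiated groups and none rose. Stat2, a factor of the type I interferon response, read 7.97, 8.21 and 8.27 in control, 7.31, 7.18 and 7.15 in TBI, and 7.68, 7.49, 7.76 and 7.47 in MASM + TBI rats. The 3 groups did not overlap, with TBI lowest and MASM + TBI between, the same order as for Il6r. Stat2 fell by 0.94 in TBI (SE 0.12, limma adjusted p = 0.00457) and by 0.55 in MASM + TBI rats (SE 0.11, limma adjusted p = 0.0364), and MASM + TBI minus TBI was 0.39 (limma adjusted p = 0.133). The call in MASM + TBI rats was lost without control rats 2 or 3, TBI rat 2, or MASM + TBI rats 1, 2 or 4 (adjusted p up to 0.134). It was also lost in a fit to the 2 groups alone (adjusted p = 0.0586), with 75th percentile scaling (0.0676), with the replicate block (0.163) and in the methods' t-test (0.198). With the slide as a fixed block the estimate was -0.39, but that fit leaves 1 MASM + TBI rat against the controls and gives no test. With normexp background correction both differences were smaller, -0.46 and -0.35, and both passed the limma test. T lymphocyte markers were called lower in the same groups, as given above, while Lck of that list gave 0.55 and 0.36 and did not pass. Of 4 B lymphocyte markers measured, Cd79b alone passed, as lower in both groups. It was well above background on no irradiated array, and control rats were at least 4.98-fold higher than TBI and at least 2.55-fold higher than MASM + TBI rats, whereas Cd22 gave 0.54 and -0.04. Of 5 stellate cell markers, Lrat alone passed (-0.62 and -0.60), and Rgs5 gave 0.30 and 0.31. The part of these cells in the Stat2 differences was not tested.

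None of 13 negative regulators of JAK-STAT signalling passed in limma in any comparison. At an unadjusted p under 0.05 there were 4, 5 and 6 in TBI minus control, MASM + TBI minus control and MASM + TBI minus TBI, beside 23.5%, 16.9% and 17% of all probes. Pias2, a SUMO ligase that restrains STATs, had the lowest p of that list, with 0.34 in TBI and 0.44 in MASM + TBI minus control (limma adjusted p = 0.102 and 0.0555), and passed in MASM + TBI minus control without MASM + TBI rat 2 (0.50, adjusted p = 0.0405), and with normexp, dim probes left out, the trended robust prior and the slide as a random block (adjusted p 0.0209 to 0.0445). With the random block it also passed in TBI minus control (adjusted p = 0.0302). Socs2, an inhibitor of growth hormone signalling chosen after its values were seen, had the lowest estimate of the lists in MASM + TBI minus control, -1.61 (SE 0.44, limma adjusted p = 0.0972), with 6.84, 7.15, 6.97 and 6.41 in those rats against 8.38, 8.93 and 8.05 in control. It passed without TBI rat 2 or TBI rat 3 (adjusted p = 0.0498 and 0.0380), in a fit to the 2 groups alone (adjusted p = 0.0337) and with the slide as a random block (0.0377). It did not pass in the other alternatives (adjusted p up to 0.297), and with normexp the estimate was -0.96. None of 4 other C/EBP factors passed in limma, with 1, 1 and 0 at an unadjusted p under 0.05 in the same order, beside the same shares of all probes. Cebpa, which maintains the hepatocyte programme, gave -0.42 in TBI and -0.54 in MASM + TBI minus control (limma adjusted p = 0.142 and 0.0887), and passed in both without TBI rat 1 (-0.60 and -0.54, adjusted p = 0.0287 and 0.0280), and in MASM + TBI minus control in a fit to the 2 groups alone (adjusted p = 0.0299) and with normexp (0.0329), and in both with the slide as a random block (0.0481 and 0.0363).

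**Figure D3:**
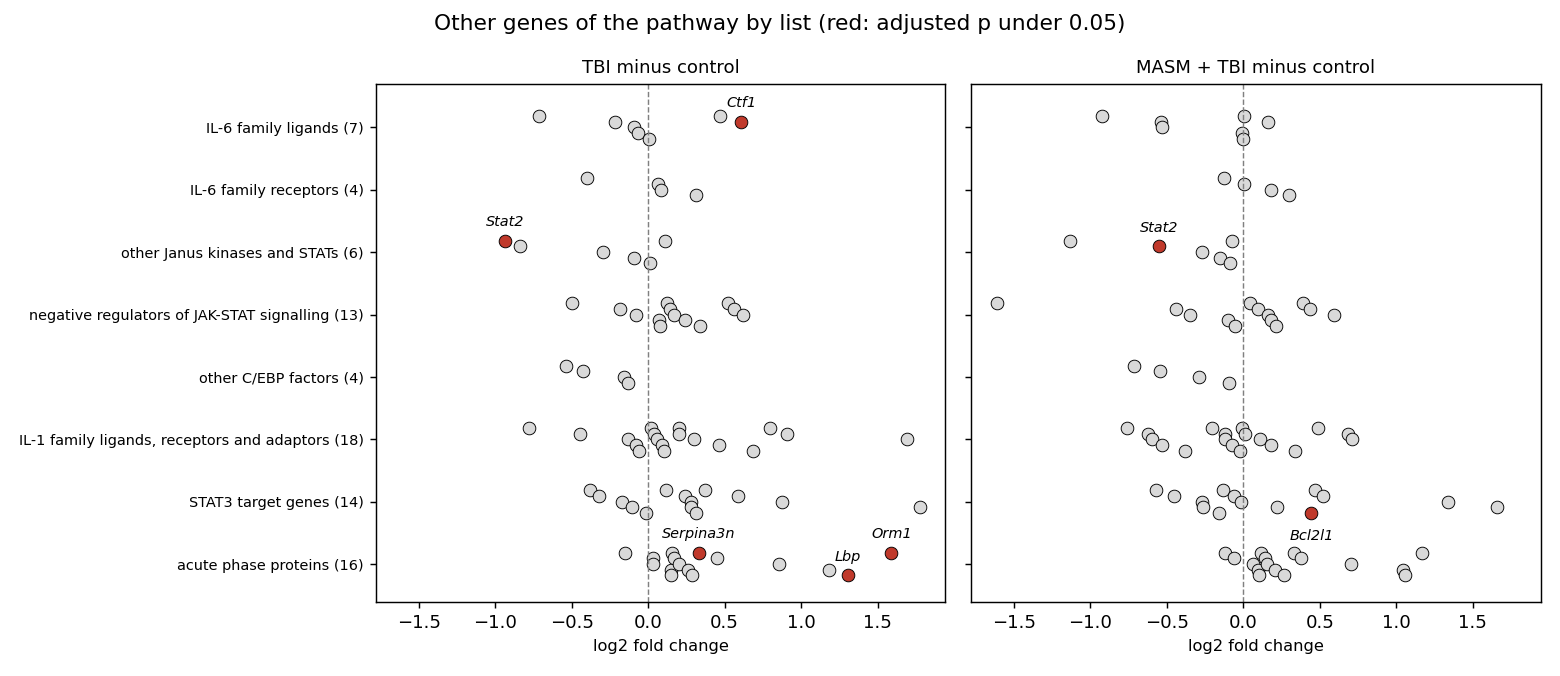
Log2 fold change of each of the 82 other pathway genes (points) by list, with the number of genes measured in brackets, for TBI minus control (left) and MASM + TBI minus control (right); red points with a name have an adjusted p under 0.05, and the vertical scatter within a list has no meaning. Stat2 lies below 0 in both panels, and the 3 acute phase genes in red on the left, Lbp, Orm1 and Serpina3n, are not red on the right. None of these 3 was called in MASM + TBI minus TBI, which is not shown.

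None of 18 genes of the IL-1 family and its adaptors passed in limma. At an unadjusted p under 0.05 there were 3, 4 and 2 in the same order of comparisons, beside 23.5%, 16.9% and 17% of all probes. Il1rap, the accessory chain of the IL-1 receptor, had the lowest p and gave 0.34 in MASM + TBI minus control (SE 0.08, limma adjusted p = 0.0773), and passed with normexp (0.28, adjusted p = 0.0285) and with the slide as a random block (0.33, adjusted p = 0.0339). Il1b, which encodes IL-1 beta and was chosen after its values were seen, read 9.28, 9.86 and 9.59 in control, 9.76, 12.12 and 11.92 in TBI, and 9.88, 9.53, 9.97 and 8.43 in MASM + TBI rats. TBI rats 2 and 3 stood about 2 log2 units above every other rat, and TBI rat 1 lay with the controls. The differences were 1.69 for TBI minus control (SE 0.64, limma adjusted p = 0.158) and -1.82 for MASM + TBI minus TBI (SE 0.60, limma adjusted p = 0.177). Without TBI rat 1 both passed, at 2.45 and -2.57 (limma adjusted p = 0.0271 and 0.0258). Of the 6 macrophage markers, 5 were also lowest in TBI rat 1 of that group, namely Adgre1 (9.21, 10.71 and 10.86), Marco (10.46, 11.75 and 10.96), Cd68 (12.83, 13.75 and 13.46), Clec4f (15.16, 16.04 and 15.56) and, within a narrow range, Vsig4 (9.46, 9.50 and 9.56). Cd163 read 8.12, 8.22 and 7.65 in the same rats, and the part of macrophages in the Il1b values was not tested. Il1a, also chosen afterwards, gave 0.91 in TBI and 0.69 in MASM + TBI minus control (limma adjusted p = 0.127 and 0.275). The first passed with the slide as a random block (adjusted p = 0.0423). Under other alternatives the estimates were as low as 0.55 and 0.41.

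Of 14 STAT3 target genes, none passed in limma in TBI minus control, with 2 at an unadjusted p under 0.05, beside 23.5% of all probes. In MASM + TBI minus control 1 rose (1.26% of all probes), and in MASM + TBI minus TBI none passed. Bcl2l1, which encodes the survival protein BCL-XL, read 10.31, 10.31 and 10.58 in control, 10.75, 10.79 and 10.60 in TBI, and 10.74, 10.91, 10.85 and 10.88 in MASM + TBI rats. Each irradiated rat was above each control, with TBI rat 3 closest to them. Bcl2l1 rose by 0.45 in MASM + TBI minus control (SE 0.10, limma adjusted p = 0.0477). The call was lost without any 1 rat other than control rat 3 or TBI rat 3 (adjusted p up to 0.155) and in a fit to the 2 groups alone (adjusted p = 0.0593). TBI minus control was 0.31 (limma adjusted p = 0.114). In MASM + TBI minus TBI it did not pass, at 0.08 to 0.17 with 1 rat left out and 0.12 to 0.19 over the other alternatives.

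Of 16 acute phase proteins, 3 rose in TBI minus control (2.44% of all probes rose) and none in MASM + TBI minus control (1.26%). At an unadjusted p under 0.05, limma gave 4 and 6, beside 23.5% and 16.9% of all probes. None of the 16 passed in MASM + TBI minus TBI (3 at an unadjusted p under 0.05, beside 17% of all probes). A call in TBI rats and none in MASM + TBI rats is therefore not a difference shown between the irradiated groups. All TBI rats lay above all controls for 6 of the 16 (11.3% of all probes did so), and all MASM + TBI rats did for 6 of the 16 (9.33%), with Orm1 in the first count alone and Fgg, the fibrinogen gamma chain, named after its values were seen, in the second alone. For none of the 16 did all irradiated rats lie below. Lbp, the lipopolysaccharide-binding protein, read 9.96, 10.13 and 10.48 in control, 11.31, 11.92 and 11.25 in TBI, and 11.08, 10.98, 10.51 and 11.00 in MASM + TBI rats, with the 3 groups apart. It rose by 1.30 in TBI (SE 0.23, limma adjusted p = 0.0179), and was 0.70 above control in MASM + TBI rats (SE 0.21, limma adjusted p = 0.131). The call was lost without control rats 1 or 2 (adjusted p = 0.0554 and 0.0570). Orm1, alpha-1-acid glycoprotein, read 14.48, 15.35 and 15.18 in control, 16.58, 16.94 and 16.27 in TBI, and 16.33, 16.45, 15.32 and 16.16 in MASM + TBI rats. MASM + TBI rat 3, which shared slide 1 with the controls, was the lowest of its group for Lbp and for Orm1. With the slide as a fixed block, which leaves that rat alone against the controls, MASM + TBI minus control was 0.32 for Lbp and 0.31 for Orm1, and with 1 rat there is no test. Orm1 rose by 1.59 in TBI (SE 0.34, limma adjusted p = 0.0357), and the call was lost without any 1 of control rats 1, 2 or 3, TBI rats 1 or 2, or MASM + TBI rats 1 or 4 (adjusted p up to 0.0931). Its difference in MASM + TBI rats was 1.06 (limma adjusted p = 0.130).

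Serpina3n, a serine protease inhibitor of plasma, rose by a small amount in TBI, 0.33 (SE 0.06, limma adjusted p = 0.0232), from 17.31, 17.26 and 17.32 in control to 17.61, 17.66 and 17.62, with 17.42, 17.45, 17.40 and 17.48 in MASM + TBI rats. The 3 groups did not overlap, and the call was lost without any 1 control rat or TBI rat 2 (adjusted p up to 0.0713) and with 75th percentile scaling (0.23, adjusted p = 0.394). Named after their values were seen, Hamp, the iron hormone hepcidin that STAT3 induces directly, gave 1.19 in TBI and 1.04 in MASM + TBI minus control (limma adjusted p = 0.0538 and 0.0895). Its TBI difference passed without control rat 1 or control rat 3 (0.80 and 1.48, adjusted p = 0.0354 and 0.0316), and also with 75th percentile scaling, normexp, dim probes left out, the trended robust prior and the slide as a random block (adjusted p 0.0134 to 0.0442). In MASM + TBI minus control it passed with dim probes left out and with the random block (adjusted p = 0.0494 and 0.0363). Fgb, the fibrinogen beta chain, gave 0.26 and 0.27 in the same comparisons (limma adjusted p = 0.247 and 0.279). Without control rat 2 these were 0.15 and 0.16, and the first was also 0.15 without TBI rat 3 and 0.11 with 75th percentile scaling. A2m, alpha-2-macroglobulin, a major acute phase protein of the rat that IL-6 induces, read 11.69, 10.03 and 10.29 in control, 10.27, 10.53 and 12.57 in TBI, and 13.51, 11.00, 11.75 and 11.10 in MASM + TBI rats. The groups overlapped, and 1 rat of each stood well above the others of its group.

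**Figure D4:**
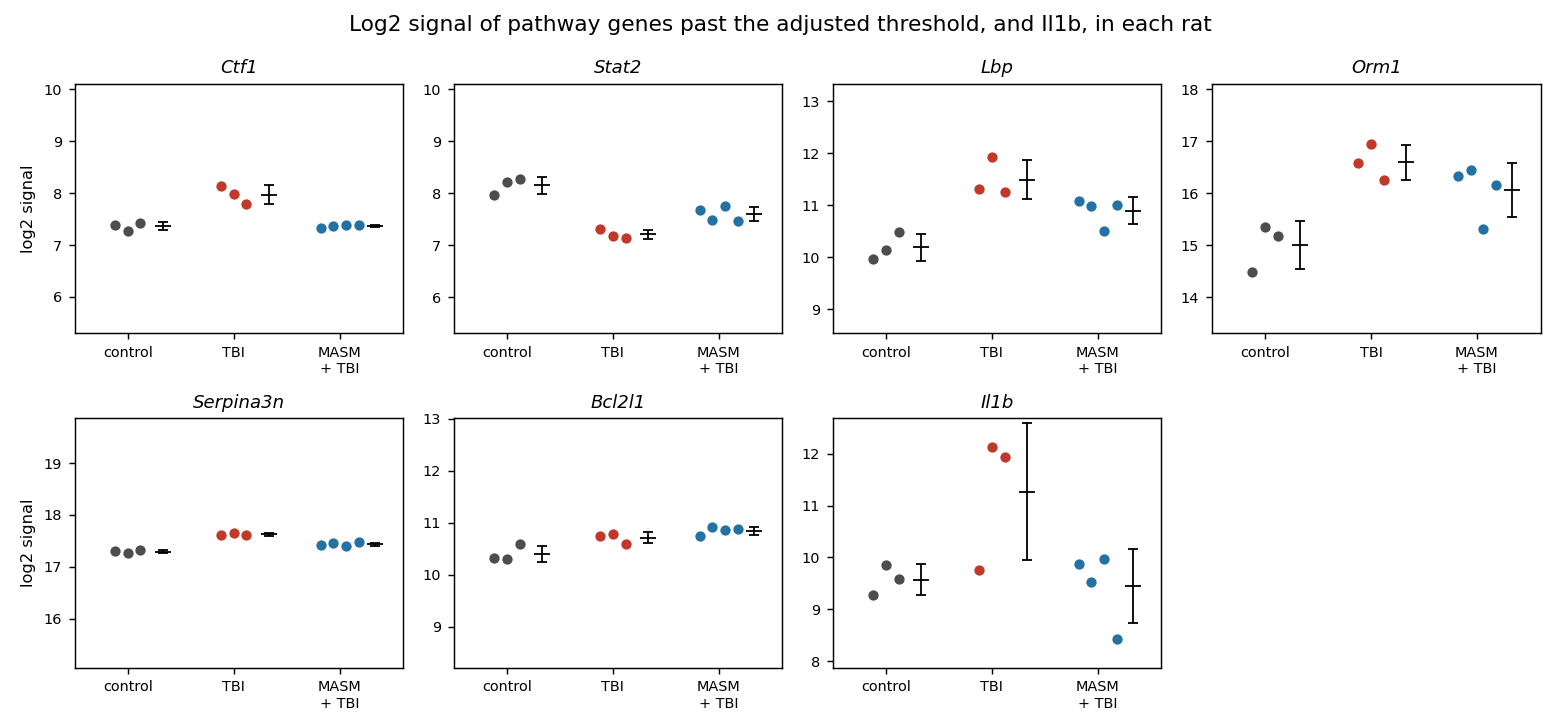
Log2 signal in each rat (1 point per array; grey control, n = 3; red TBI, n = 3; blue MASM + TBI, n = 4) of the 6 pathway genes past the adjusted threshold in a comparison, and of Il1b, with group mean ± SD in black; panels span the same width of the log2 axis. Ctf1 stands high in TBI rats alone, Stat2 stands low in both irradiated groups, and 2 of 3 TBI rats stand apart for Il1b.

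The genes whose signal ran most like that of Stat3 across the 10 arrays were sought among 8362 genes with a symbol, outside the 9 genes and the pathway lists, that were well above background and had a value on every array. Jmjd7 had the highest Pearson r (0.940), followed by the heat shock cognate chaperone Hspa8 (0.916), the stress-induced zinc finger gene Zfand2a (0.909), the hepatocyte-secreted Fgl1 (0.905) and N4bp3 (0.901). Of 74 genes of the lists and members that met the same condition, 1 had an r above that of N4bp3, the acute phase gene Itih4 (0.913). The 10 arrays share 3 groups and 3 slides, so these values describe likeness of pattern only. Fgl1 read 13.47, 14.22 and 13.97 in control, 14.52, 14.69 and 14.49 in TBI, and 14.87, 15.00, 14.61 and 14.38 in MASM + TBI rats, with control rat 1 the lowest as it was for Stat3. Among the 9 genes themselves, Il1rn ran most like Stat3 (r = 0.779), and Jak2 and Cebpd ran most like each other (r = 0.832).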

How the data were processed

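Liver RNA of 10 arrays (3 control, 3 TBI, 4 MASM + TBI) was measured on 1-colour Agilent 4x44K rat arrays. The authors deposited intensities from Feature Extraction 10.7.3.1, linear, background-subtracted and detrended, not normalized between arrays, and the deposited table of values is the same. Control spots (1639 per array) and 76 to 112 outlier spots were left out, log2 signals were quantile normalized, spots averaged per probe, and 3 group means fitted with limma 3.58.1 in R 4.3.3 (data.table, version 1.17.8), with Benjamini-Hochberg adjustment over 41012 probes; plots used matplotlib 3.10.9 in Python 3.11.15. Arrays carry no read depth, so their number limits the precision. On simulated data for TBI minus control with 40945 probes, 35% of 100 changes of 2-fold and 73% of 100 changes of 4-fold were recovered, with 5 false calls. Symbols came from accessions matched to RefSeq (GRCr8), and 16968 probes had one. Array design and gene table use different assemblies, so probe positions are not given, and promoter windows are those of the gene table. A gene of the lists is not reported here. Genes were named if they were among the 10 genes, passed in a listed comparison, had the lowest p of a list with no call, or were among the 5 most like Stat3, apart from those said to be chosen after their values were seen, Itih4, and cell type markers, which were also chosen then. The genes, lists and alternatives were chosen with earlier results of these data known, and the half-site and TATA motifs after the windows had been read. Alternatives were 75th percentile scaling, normexp (offset 50, on median signals), the deposited table, no dim probes, a fit to 2 groups, the methods' t-test, a trended robust prior, replicate and slide blocks, any probe of a gene, the study's thresholds, and each rat left out.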

Additional observations from a re-analysis of the deposited data

Results flagged for a closer look

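Ctf1 differed between irradiated rats with and without MASM: its log2 fold change for MASM + TBI minus TBI was -0.6 (limma adjusted p = 0.0198), lower in 4 of 4 MASM + TBI rats than in each TBI rat. Lbp in the MASM + TBI rats had a sample far from the others: the gap of rat 3 to its nearest neighbour was 0.831 of the group's range, just above Dixon's critical value at 95% for 4 samples. Chance flags about 5% of groups.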

How the results depend on the processing

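No called value changed direction under any alternative. Il6r in TBI minus control passed with each of 10 rats left out (-0.85 to -0.67, adjusted p 0.0140 to 0.0349), and did not in a fit to the 2 groups alone (adjusted p = 0.0566) or in the methods' t-test (0.247). The count of the 9 genes called in TBI minus control, 1 in the main analysis, was 2 with 75th percentile scaling, the slide as a random block (correlation -0.133, so slide effects are not taken out) and the study's thresholds, and 0 in the fit to 2 groups and the t-test. In MASM + TBI minus control it was 1 with the study's thresholds, against 0. In MASM + TBI minus TBI it was 1 with 75th percentile scaling and the random block (Il6r, adjusted p = 0.0385 and 0.0214), 2 with the study's thresholds, and 0 to 1 with a rat left out. Of 82 pathway genes in TBI minus control, 5 in the main analysis became 9 with 75th percentile scaling, 8 with normexp, 1 with 2 groups and with the replicate block, 0 in the t-test, 14 with the random block, 10 with the study's thresholds and 2 to 6 with a rat left out. In MASM + TBI minus control, 2 became 0 with 75th percentile scaling, the replicate block and the t-test, 6 with normexp, 4 without dim probes and with the trended robust prior, 10 with the random block, 11 with the study's thresholds and 0 to 4 with a rat left out. No count is given for the slide as a fixed block, which leaves 1 MASM + TBI rat against the controls. The fit to those 2 groups alone called 3, but neither of the 2 (Stat2 and Bcl2l1). In MASM + TBI minus TBI, 1 became 4 with 75th percentile scaling and the random block, 0 in the t-test and with the replicate block, 7 with the study's thresholds and 0 to 4 with a rat left out. The causes were not tested. Over all probes the counts of 2309, 1227 and 665 became 7476, 816 and 5473 with 75th percentile scaling, 977, 1371 and 263 with 2 groups, 10, 40 and 4 in the t-test (6203, 5906 and 4803 unadjusted), 1053, 298 and 22 with the replicate block, and 6738, 2842 and 2044 with the random block. Same-numbered rats correlated at -0.125 to 0.169 in their deviations. Rats with different numbers were not correlated for reference, so whether the numbers pair the rats was not settled. The replicate block left the calls among the 9 genes at 1, 0 and 0. With 3 or 4 rats a group and 35% of simulated 2-fold changes recovered, a missing call does not show an absent change.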
